A study of Mus musculus with 17 samples.

Results

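Expression of the enzymes that write and remove DNA methylation was followed in cultured mouse stem cells through 9 genes and all their transcripts. The genes were the DNA methyltransferases Dnmt1, Dnmt3a and Dnmt3b, the catalytically inactive Dnmt3 partner Dnmt3l, the Dnmt1 recruiter Uhrf1, the methylcytosine dioxygenases Tet1, Tet2 and Tet3, and the thymine DNA glycosylase gene Tdg. They were chosen by symbol, with every RefSeq transcript kept, which gave 32 of 32661 transcripts and 9 of 23891 gene symbols in the tables. RNA-seq came from 17 samples: 4 lines of spermatogonial stem and progenitor cells (SSC), 6 lines of multipotent adult spermatogonial-derived stem cells (MASC), 2 embryonic stem cell (ESC) lines, 2 induced pluripotent stem (iPS) cell lines, 2 cultures of haematopoietic stem and progenitor cells (HSC) and 1 sample of mouse embryonic fibroblasts (MEF). By strain label, SSC lines 1 and 2, MASC lines 1 and 2 and ESC line 1 were Oct4-GFP. SSC line 4, MASC lines 3 and 4, ESC line 2, both iPS lines and the MEF sample were 129mix, SSC line 3 and both HSC cultures were C57Bl/6J, and MASC lines 5 and 6 were Gt(ROSA26)Sor-lacZ.

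MASC arose in SSC cultures after long expansion and were taken as colonies that looked like undifferentiated ESC. The iPS lines came from E13.5 embryonic fibroblasts that carried H3.3B-HA and tetO-4F2A, a doxycycline-inducible reprogramming cassette, and were induced with 2 μg/ml doxycycline. The MEF sample came from H3.3B-HA embryos of the same stage, so SSC, MASC, ESC and HSC are not described as carrying that allele while iPS and MEF are. SSC were grown on fibroblast feeders in a medium with GDNF, bFGF, EGF and ascorbic acid, whereas MASC, ESC and iPS cells were grown on the same kind of feeder in a serum-replacement medium with leukaemia inhibitory factor. SSC and the pluripotent lines therefore differed in medium as well as in cell type, and these cannot be told apart. HSC were lineage-depleted bone marrow cells expanded on E4ORF1-HUVEC feeders, human endothelial cells, with Kit ligand. No label ties a line to an animal, so p-values measure the spread between these lines, which may be technical.

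Marker genes followed the labels for most samples. The summed FPKM (fragments per kilobase of transcript, scaled to the mapped fragments of a sample) of 5 pluripotency markers was 1481 to 2833 in the MASC, ESC and iPS lines, and 9.94 to 123 in SSC, where the highest value belonged to line 1 with Pou5f1 at 108 FPKM. The 6 SSC markers summed to 601 to 852 FPKM in SSC and 91.8 to 173 FPKM in MASC. Zbtb16, Gfra1, Ret, Ddx4 and Dazl were lower in MASC, whereas Etv5 went the other way (1.72, limma, adjusted p = 0.0345). Etv5 was at 11.4 to 123 FPKM in SSC and 81.1 to 128 FPKM in MASC, and did not pass after quantile normalization (limma, adjusted p = 0.0790). Among SSC, MASC and ESC, summed fibroblast markers exceeded 300 FPKM in SSC lines 1 and 3, MASC line 1 and ESC line 1. They were at 347 to 899 FPKM there against 6567 FPKM in the MEF sample. A count of genes for MASC against SSC is also given without those 4 lines. HSC culture 2 had 456 FPKM. Summed testis somatic markers were 22.0 to 30.8 FPKM in SSC and 5.88 to 21.7 FPKM in MASC, with Wt1 (-2.40, adjusted p = 0.000370) and Sox9 (-1.54, adjusted p = 0.0325, both limma) lower and Cyp11a1 higher in MASC, and their part in the results was not tested. In HSC cultures 1 and 2, 6 mast cell markers summed to 62740 and 38252 FPKM, above the 1503 and 1107 FPKM of the HSC markers, so the HSC values describe cultures rich in mast cell transcripts. The same markers summed to 26.6 FPKM in SSC line 3, 46.6 FPKM in MASC line 2 and 28.5 FPKM in ESC line 1. They were at 0.0747 FPKM or less in the other SSC, MASC, ESC and iPS lines, and the source was not tested. In this bulk RNA fewer cells of a type and less RNA per cell cannot be told apart. All 9 genes reached 1 FPKM in at least 2 samples, as did 28 of the 32 transcripts.

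Dnmt3a and Dnmt3b add methyl groups to unmethylated DNA, and Dnmt3l binds and stimulates them without activity of its own. Dnmt1, brought to hemimethylated sites by Uhrf1, copies the pattern after replication, while the Tet enzymes oxidize methylcytosine to products that Tdg excises. De novo methylation and Dnmt3l are prominent in male germ cell precursors before birth and in cells of the early embryo, and each Dnmt3 gene yields forms that differ in start site or exons. These forms differ in chromatin targeting or activity, and forms of Dnmt3b without part of the catalytic domain can still bind the active ones.

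The Dnmt3b gene lies on chr2:153475185-153513466 (mm9, plus strand) and had 9 transcripts in the tables, all listed with the same start. Their lengths, from 4324 down to 3960 bases, could each be explained in a single way by leaving out a 115-base noncoding exon, a 60-base coding exon, or a pair of coding exons of 70 and 119 bases, and by a 3-base shift of an acceptor site. The exons come from the GENCODE vM1 annotation, and exon content was inferred from length, since the tables do not list exons. The 3 coding exons are shown because the isoform results rest on them. Capitals mark the exon and lower case the 20 intronic bases on each side, with ag before and gt after each exon.
Dnmt3b 60-base exon, chr2:153496585-153496644: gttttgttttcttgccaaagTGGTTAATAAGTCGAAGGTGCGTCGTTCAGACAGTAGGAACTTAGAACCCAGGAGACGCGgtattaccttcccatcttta
Dnmt3b 70-base exon, chr2:153509344-153509413: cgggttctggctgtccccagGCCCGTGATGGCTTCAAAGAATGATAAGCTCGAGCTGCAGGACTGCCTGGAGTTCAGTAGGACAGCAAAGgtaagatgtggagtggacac
Dnmt3b 119-base exon, chr2:153510095-153510213: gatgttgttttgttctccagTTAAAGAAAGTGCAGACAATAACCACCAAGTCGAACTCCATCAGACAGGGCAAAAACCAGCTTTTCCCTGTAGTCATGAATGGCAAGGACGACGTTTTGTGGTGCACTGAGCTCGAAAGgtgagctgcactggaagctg
The 60-base exon lies upstream of the catalytic domain and keeps the reading frame. The 70- and 119-base exons together span 189 bases of the catalytic domain, and forms without them are known to be inactive.

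Dnmt3a lies on chr12:3806980-3914443 (plus strand) with starts at 3806980 (NM_007872), 3807160 (NM_001271753) and 84764 bases downstream of the first at 3891744 (NM_153743). The internal start gives the shorter protein known as Dnmt3a2, which lacks the amino-terminal part of the longer form. Dnmt3l lies on chr10:77505032-77526367 (plus strand), and its leading transcripts started at 77512587 (NM_019448) and 77512704 (NM_001284197). The 200 bases before the starts are shown from the mm9 genome to set the alternative Dnmt3a starts and the Dnmt3l start of NM_019448 side by side, with CpG, the substrate of these enzymes, in capitals.
Dnmt3a upstream start, chr12:3806780-3806979: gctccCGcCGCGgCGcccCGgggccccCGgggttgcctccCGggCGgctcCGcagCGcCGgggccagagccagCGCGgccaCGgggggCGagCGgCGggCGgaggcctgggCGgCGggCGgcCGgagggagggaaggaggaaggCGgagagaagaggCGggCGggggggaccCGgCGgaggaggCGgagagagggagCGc
Dnmt3a internal start, chr12:3891544-3891743: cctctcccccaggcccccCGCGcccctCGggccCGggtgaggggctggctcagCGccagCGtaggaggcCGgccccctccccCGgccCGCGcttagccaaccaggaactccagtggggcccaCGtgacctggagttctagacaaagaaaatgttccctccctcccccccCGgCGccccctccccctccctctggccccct
Dnmt3l start, chr10:77512387-77512586: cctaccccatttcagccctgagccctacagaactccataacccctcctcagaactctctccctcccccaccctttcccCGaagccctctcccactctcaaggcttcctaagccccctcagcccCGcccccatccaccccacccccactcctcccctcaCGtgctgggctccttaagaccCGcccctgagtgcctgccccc
CG was searched on the plus strand, which counts both strands because CG is its own complement. The upstream Dnmt3a window held 29 CpG, a number that 4.63% of 45982 windows before annotated protein-coding starts reached. The internal Dnmt3a window held 13, reached by 36.5% of windows, and the Dnmt3l window before NM_019448 held 4, reached by 67.2%. The window before NM_001284197, which was more abundant than NM_019448 in every MASC line, is not shown and held 5, reached by 62.0%. Of all windows, 92.2% held at least 1 CpG. These counts describe sequence only, and methylation was not measured in these files.

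Transcripts for de novo methylation separated SSC from every pluripotent line. The mean FPKM of Dnmt3b was 9.85 times and that of Dnmt3l 241 times as high in MASC as in SSC, whereas the totals for Dnmt3a overlapped. Dnmt3b was at 16.6, 8.66, 7.93 and 16.2 FPKM in SSC lines 1 to 4. In MASC it ranged from 69.6 through a median of 127 to 193 FPKM, so the lowest MASC line was above every SSC line. The difference was 3.19 ± 0.34 (SE) on the log2(FPKM + 1) scale (limma, Benjamini-Hochberg adjusted p = 7.15e-05, 4 SSC and 6 MASC lines). Dnmt3l was at 0.591, 0.365, 0.569 and 2.25 FPKM in SSC and from 82.1 through 245 to 301 FPKM in MASC. These groups also did not overlap, and the difference was 6.86 ± 0.39 (limma, adjusted p = 1.64e-06). MASC line 1, which had the lowest Dnmt3l and Dnmt3b of the MASC lines, also had the highest fibroblast marker sum of the 12 SSC, MASC and ESC lines, 899 FPKM. The part of this in its values was not tested.

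**Figure D1:**
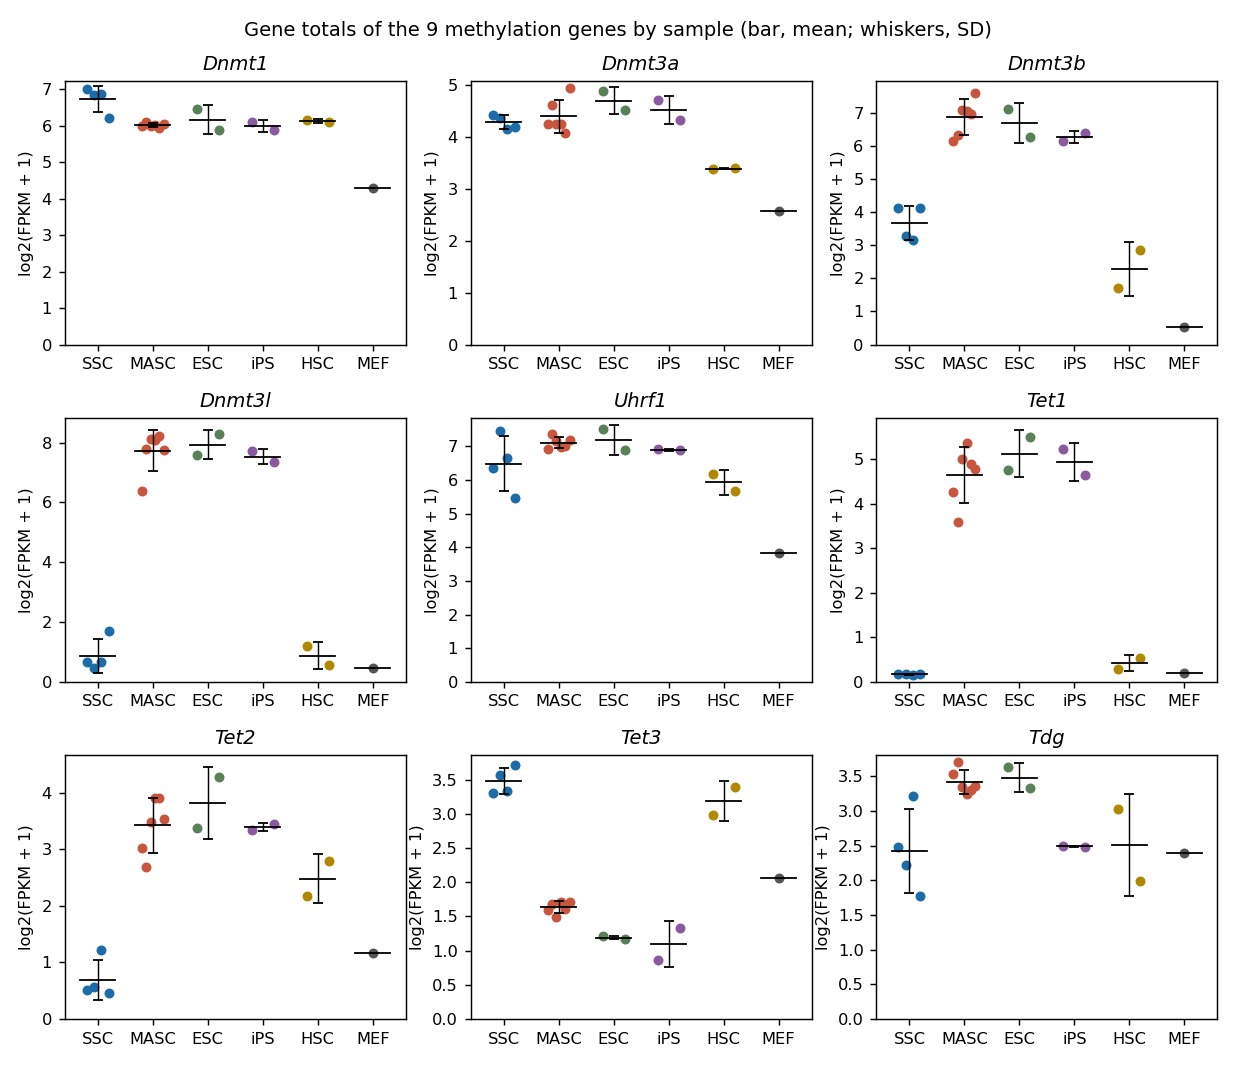
Gene totals (sum of the FPKM of all transcripts of a symbol) of the 9 genes on a log2(FPKM + 1) axis, with 1 point per sample, a bar at the group mean and whiskers of 1 SD. Dnmt3b, Dnmt3l, Tet1 and Tet2 are low in all 4 SSC lines and high in all MASC, ESC and iPS lines, and Tet3 has the opposite order. Dnmt3a overlaps between SSC and MASC, while both ESC lines lie above the SSC lines.

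Of the 9 genes 7 passed an adjusted p of 0.05 between MASC and SSC, 5 higher and 2 lower in MASC, where 36.4% of all gene symbols passed in either direction, 13.6% higher and 22.8% lower. At the level of transcripts 20 of 32 passed between MASC and SSC, 12 higher and 8 lower, where 30.9% of all transcripts passed, 11.4% higher and 19.5% lower. The same 5 genes were higher in ESC than in SSC and 1 was lower, where 26.7% of symbols passed, 9.45% higher and 17.3% lower. Of the transcripts 16 passed there, 12 higher and 4 lower, where 21.4% of transcripts passed, 7.67% higher and 13.8% lower. Both comparisons use the same 4 SSC lines. Without the 4 lines with high fibroblast markers, 2 SSC, 5 MASC and 1 ESC line were left. Between MASC and SSC 6 genes then passed, where 2729 of 23891 symbols were higher and 4838 lower. Dnmt1 missed the threshold there (difference -0.51, adjusted p = 0.0659, limma). With a lone ESC line no such count is given for ESC against SSC. The median difference of detected genes between MASC and SSC was -0.17, and after quantile normalization, which brought it to -0.0076, the same 7 genes passed in the same directions. After this step Dnmt1 also passed as lower in ESC than in SSC.

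**Figure D2:**
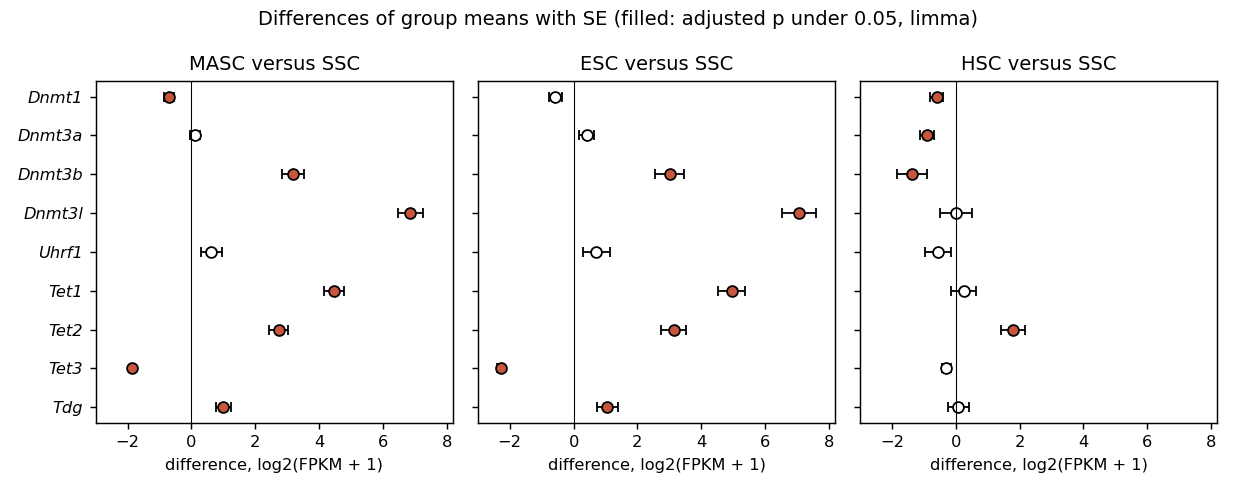
Differences of group means on the log2(FPKM + 1) scale with their SE from limma, for MASC, ESC and HSC, each against the same 4 SSC lines. Filled points passed an adjusted p of 0.05. Dnmt3l differed by 6.86 in MASC and 7.07 in ESC and did not pass in HSC, and Tet3 passed as lower in MASC and ESC, while in HSC it was at -0.29, a difference that did not pass and turned to 0.03 after quantile normalization.

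The totals for Dnmt3a did not pass in either comparison. SSC lines 1 to 4 had 20.4, 19.6, 16.7 and 17.3 FPKM, and MASC had 15.7 to 29.5 FPKM with a median of 18.0, so the groups overlapped. The difference was 0.11 ± 0.17 (limma, adjusted p = 0.698). ESC lines had 28.3 and 21.7 FPKM, above every SSC line, a difference of 0.41 ± 0.22 that did not pass with 2 ESC lines (limma, adjusted p = 0.228). As a share of the summed FPKM of Dnmt3a and Dnmt3b, Dnmt3b was 44.8%, 30.6%, 32.2% and 48.5% in SSC lines 1 to 4 and 77.0% to 88.6% in MASC, with a median of 87.4%. This was a shift from mostly Dnmt3a to mostly Dnmt3b of 45.7 percentage points (exact permutation test, two-sided, p = 0.00476, the smallest that 210 arrangements allow; adjusted over 12 shares, 0.00714). The sum of the 2 genes was 24.6 to 37.0 FPKM in SSC and 87.5 to 222 FPKM in MASC.

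The form of Dnmt3b differed as well as its amount. Transcripts with the 60-base exon made up 26.8%, 27.0%, 17.9% and 27.0% of Dnmt3b in SSC lines 1 to 4, and 97.4% to 99.1% in the 6 MASC lines. The mean difference was 73.3 percentage points (exact permutation test, two-sided, p = 0.00476, the smallest possible; adjusted over 12 shares, 0.00714). ESC lines had 98.2% and 97.1% and iPS lines 99.7% and 97.2%, so no pluripotent line was below 97.1%. In SSC the exon-containing share rested on a single transcript, NM_001122997, the only one that also carries the 3-base acceptor shift. The other 4 exon-containing transcripts were estimated at no more than 0.000108 FPKM in any SSC line. With NM_001122997 left out of both sides, the exon-containing share was at most 0.00441% in SSC and 94.6% to 97.9% in MASC. Whether reads from the exon or from the acceptor shift placed NM_001122997 in SSC cannot be told from FPKM.

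The exon-lacking transcripts were not only outnumbered but lower in MASC. They summed to 12.1, 6.32, 6.51 and 11.9 FPKM in SSC lines 1 to 4 and to between 1.24 and 4.80 FPKM in MASC. NM_001271747, which lacks all the alternative exons, had 3.74, 2.89, 2.90 and 5.50 FPKM in SSC and 0.350 to 1.21 FPKM in MASC, a difference of -1.59 ± 0.18 on the log2(FPKM + 1) scale (limma, adjusted p = 0.000145). NM_001122997 went the other way, with 4.44, 2.34, 1.42 and 4.39 FPKM in SSC and 35.9 to 100.1 FPKM in MASC, a difference of 4.02 ± 0.35 (limma, adjusted p = 2.75e-05). It was the most abundant Dnmt3b transcript in all MASC lines. As shares of the gene, all 9 Dnmt3b transcripts passed between MASC and SSC, the 5 with the 60-base exon higher and the 4 without it lower. In all, 12 of 30 tested member transcripts passed by share, 7 higher and 5 lower, against 10.8% of 10009 transcripts, 5.09% higher and 5.66% lower. Shares within a gene depend on each other, so these calls are not separate. Between ESC and SSC 9 passed, 4 higher and 5 lower, against 5.65% of transcripts, 2.79% higher and 2.87% lower, and 7 of the 9 were Dnmt3b transcripts.

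Transcripts with the 70- and 119-base exons, which encode a complete catalytic domain, also took a larger share in MASC. They were 64.3%, 57.4%, 46.1% and 46.7% of Dnmt3b in SSC lines 1 to 4 and 73.7% to 84.7% in MASC, a difference of 25.4 points (exact permutation test, two-sided, p = 0.00476; adjusted over 12 shares, 0.00714). The groups did not overlap. NM_001122997, which also carries both exons, rose by 29.9 ± 2.23 points as a share (limma on shares, adjusted p = 3.27e-05). With this transcript left out of both sides the SSC and MASC ranges overlap, so the separation of the groups rests on it. The 115-base noncoding exon was in 16.2% to 27.1% of Dnmt3b in SSC and 11.4% to 25.0% in MASC, with overlap (exact permutation test, two-sided, p = 0.0905). Of the exons compared, the noncoding exon was the one whose share did not pass; with 0.1 FPKM added to each transcript or without SSC line 2 it did, at p = 0.0429 and 0.0238 by the same exact test.

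**Figure D3:**
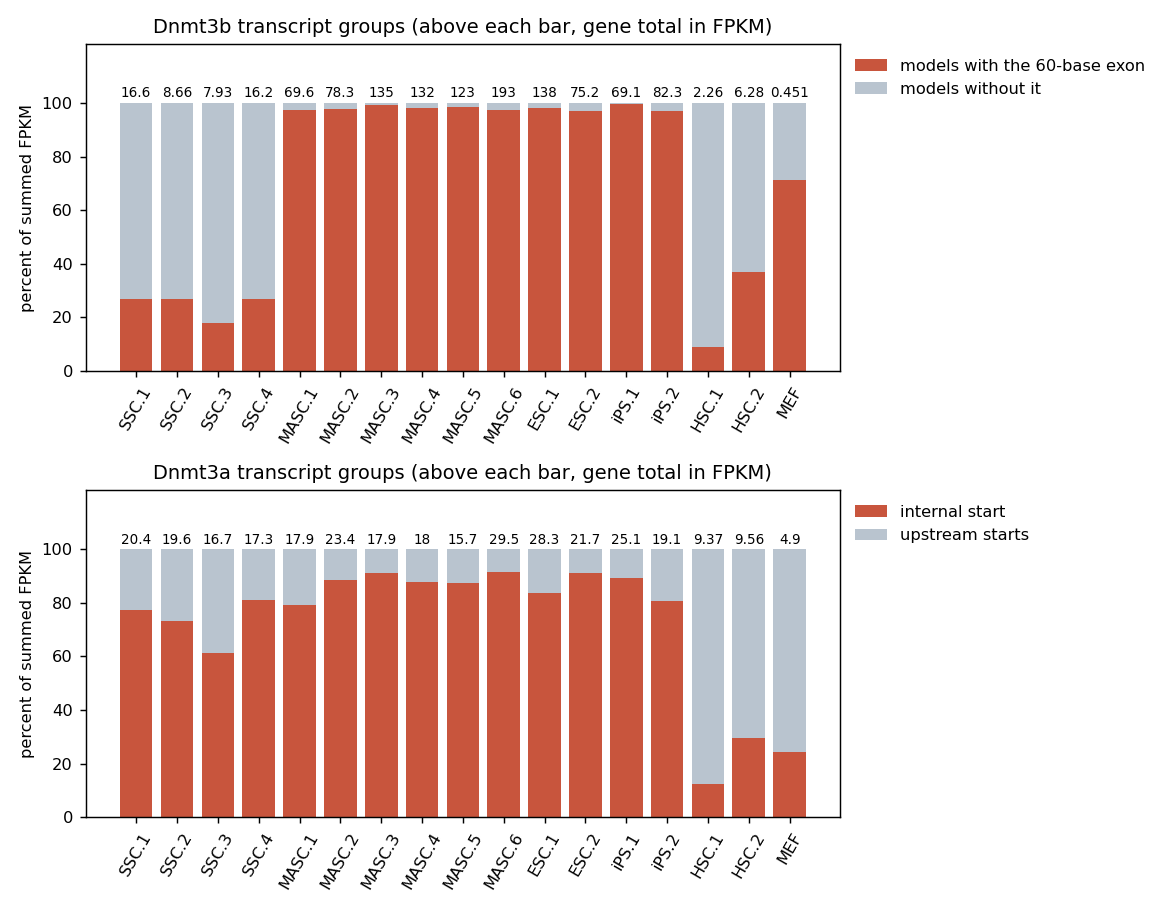
Shares of the gene's summed FPKM, in percent, for each of the 17 samples, with the gene total in FPKM above each bar. Upper panel, Dnmt3b models with (red) and without (grey) the 60-base exon: the pluripotent lines are at 97.1% to 99.7% and the SSC lines at 17.9% to 27.0%. Lower panel, Dnmt3a from the internal start (red) and the upstream starts (grey): the internal start gives 61.3% to 80.9% in SSC, 79.4% to 91.6% in MASC and 12.6% and 29.6% in HSC.

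Dnmt3a came mostly from its internal start in SSC and still more so in MASC. NM_153743 was 77.2%, 73.3%, 61.3% and 80.9% of Dnmt3a in SSC lines 1 to 4. In MASC it was 79.4% to 91.6%, with only line 1 inside the SSC range. The difference was 14.4 ± 3.84 points (limma on shares, adjusted p = 0.0389; exact permutation test, two-sided, p = 0.00952, adjusted over 12 shares 0.0114). In FPKM the internal form was 15.8, 14.4, 10.3 and 14.0 in SSC and 13.8 to 27.0 in MASC, a difference of 0.36 ± 0.19 on the log2(FPKM + 1) scale that did not pass (limma, adjusted p = 0.204). The upstream form NM_007872 was at 3.73, 2.40, 6.47 and 2.69 FPKM in SSC and 0.418 to 3.70 FPKM in MASC, and it fell by 1.17 (limma, adjusted p = 0.0427). Its share did not pass (-14.7 points, limma on shares, adjusted p = 0.128). NM_001271753, from the neighbouring upstream start, did not fall (0.16 ± 0.40, limma, adjusted p = 0.866). Summed over both upstream transcripts the ranges overlapped, at 3.30 to 6.47 FPKM in SSC and 1.57 to 3.70 FPKM in MASC. SSC line 3 and MASC line 1, the lines with the smallest internal share of their groups, had the highest fibroblast marker sums, 792 and 899 FPKM, and the MEF sample had an internal share of 24.3%. SSC had been separated from feeders by a short plating on gelatin before collection. The part of fibroblast RNA in these shares was not tested; without the 4 lines with high sums the difference in share was 12.2 points (exact permutation test, two-sided, p = 0.0476, the smallest possible with 2 SSC and 5 MASC lines).

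Dnmt3l came almost wholly from its middle starts in every MASC, ESC and iPS line, at 98.6% to 99.2% of the gene. NM_001284197 ranged from 53.9 to 189 FPKM and NM_019448 from 27.2 to 109 FPKM in MASC. Among the 6 Dnmt3l transcripts these and NM_001284198 passed between MASC and SSC, the last by 1.36 ± 0.21 (limma, adjusted p = 0.000856) at no more than 2.77 FPKM. In SSC the whole gene was at or below 2.25 FPKM, too low for its isoform shares to be compared.

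Maintenance methylation followed another order. Dnmt1 was at 129, 114, 116 and 73.8 FPKM in SSC lines 1 to 4 and in the narrow range of 61.1 to 67.5 FPKM in MASC. No MASC line reached the lowest SSC line, and Dnmt1 fell by 0.72 ± 0.15 from SSC to MASC (limma, adjusted p = 0.00507). ESC lines, at 86.8 and 58.1 FPKM, did not pass against SSC (difference -0.57 ± 0.21, adjusted p = 0.0716, limma). Uhrf1 varied widely among SSC lines, with 81.0, 174, 100.3 and 43.5 FPKM, and was at 121 to 165 FPKM in MASC with a median of 136. The groups overlapped and the difference of 0.62 ± 0.32 did not pass (limma, adjusted p = 0.167). Of the proliferation markers, which accompany replication, 2 of 6 were higher and none lower in MASC, where 13.6% of all symbols were higher. These were Pcna and Ccnb1, and Ccnb1 did not pass after quantile normalization (0.25, limma, adjusted p = 0.0990). Their summed level was 493 to 788 FPKM in SSC and 765 to 972 FPKM in MASC.

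Uhrf1, on chr17:56442760-56462909 (plus strand), has start sites at 56442760 and 56443736, and their use differed between SSC and MASC. The upstream start gave 31.3%, 38.9%, 45.3% and 37.8% of Uhrf1 in SSC lines 1 to 4 and 50.6% to 66.0% in MASC. The groups did not overlap, and the difference was 17.4 points (exact permutation test, two-sided, p = 0.00476; adjusted over 12 shares, 0.00714). The downstream transcript NM_001111078 fell by 19.5 ± 3.43 points as a share (limma, adjusted p = 0.00485). At each start the pair of models differs by 24 bases, and the longer ones made up 84.5% to 93.2% in SSC and 71.8% to 84.2% in MASC (exact permutation test, two-sided, p = 0.00952; adjusted over 12 shares, 0.0114). Dnmt1, on chr9:20711650-20764332 (minus strand), showed no such difference: the transcript from its farthest upstream start, NM_001199432, was 6.40% to 10.6% of the gene in SSC and 6.03% to 28.2% in MASC (exact permutation test, two-sided, p = 0.129). Without MASC line 4, which held the lowest share, the exact p was 0.0397. None of the 4 Dnmt1 transcripts passed by share, although 3 of them were lower in MASC in FPKM.

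The Tet genes exchanged places between SSC and the pluripotent lines. Tet3 was the main Tet transcript in SSC and Tet1 in MASC, ESC and iPS cells. Tet1 (chr10:62267318-62342762, minus strand) was at 0.134, 0.125, 0.107 and 0.130 FPKM in SSC lines 1 to 4 and at 11.01 to 40.0 FPKM in MASC with a median of 27.5. SSC was at a trace level in all 4 lines, and the difference was 4.47 ± 0.31 (limma, adjusted p = 5.18e-06). In SSC line 1 the 95% bounds of Cufflinks for the leading Tet1 transcript, NM_027384, were 0.106 and 0.161 FPKM. Tet2 (chr3:133126641-133207354, minus strand) was at 0.424, 0.474, 1.33 and 0.372 FPKM in SSC and 5.42 to 14.1 FPKM in MASC, higher by 2.74 ± 0.30 (limma, adjusted p = 7.53e-05). Tet3 (chr6:83312368-83391672, minus strand) was at 8.87, 10.9, 9.12 and 12.1 FPKM in SSC and 1.81 to 2.28 FPKM in MASC. Every MASC line was below every SSC line, and Tet3 fell by 1.85 ± 0.082 (limma, adjusted p = 3.90e-07).

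As a share of the 3 Tet genes, Tet1 was 1.02% to 1.42% in SSC and 59.1% to 71.9% in MASC, a difference of 65.5 points. Tet2 was 2.95% to 12.6% in SSC and 23.9% to 31.3% in MASC, and Tet3 86.4% to 96.0% in SSC and 4.05% to 11.8% in MASC. None of these ranges overlapped, and each gave p = 0.00476 in the exact permutation test (two-sided, the smallest possible; adjusted over 12 shares, 0.00714). The summed Tet level was 9.42, 11.5, 10.6 and 12.6 FPKM in SSC and 18.6 to 56.4 FPKM in MASC. Tet1 has 2 transcripts that differ by 96 bases, and the longer, NM_001253857, was 61.0% to 99.98% of Tet1 in MASC. SSC held too little Tet1 to compare them.

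**Figure D4:**
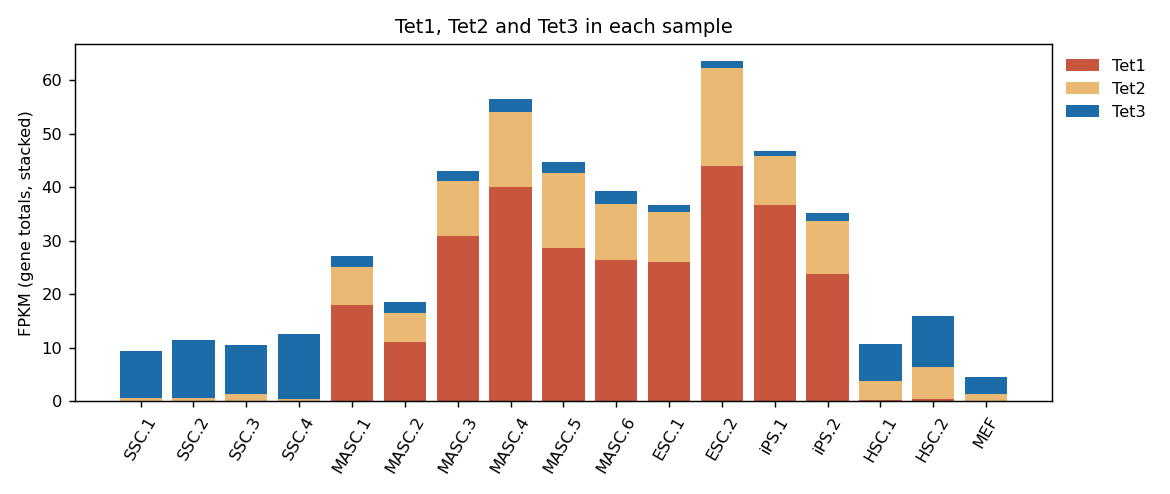
FPKM of Tet1, Tet2 and Tet3 stacked for each of the 17 samples. In SSC nearly all of a sum of 9.42 to 12.6 FPKM is Tet3, in the pluripotent lines Tet1 leads a sum of 18.6 to 63.5 FPKM, and in HSC and MEF Tet3 leads with Tet2 second.

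Tdg (chr10:82092583-82113239, plus strand) was at 4.57, 3.66, 8.30 and 2.41 FPKM in SSC and 8.50 to 12.1 FPKM in MASC. SSC line 3 came close to the lowest MASC line without overlap, and Tdg was higher by 1.00 ± 0.24 in MASC (limma, adjusted p = 0.00849). ESC lines had 11.4 and 9.08 FPKM and also passed against SSC (1.06 ± 0.32, limma, adjusted p = 0.0344), a call that was lost without any one of SSC lines 1 and 2 or of the ESC lines, with adjusted p of 0.0553 to 0.195. The other Tdg transcript, NM_011561, was at no more than 3.23e-05 FPKM in any sample, so the gene total is that of NM_172552.

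No gene of the 9 separated MASC or iPS lines from ESC lines past the threshold. Between MASC and ESC 0 of 9 passed (limma, 0.0377% of symbols passed), and 1 had an unadjusted p under 0.05. That gene was Tet3, at 1.31 and 1.25 FPKM in ESC and 1.81 to 2.28 FPKM in MASC, without overlap (difference 0.44 ± 0.10, unadjusted p = 0.00174, limma, adjusted p = 0.868). The other 8 differences lay between -0.48 (Tet1, SE 0.40) and 0.17 (Dnmt3b, SE 0.43), and 0 of 32 transcripts passed (limma, 0.0306% of transcripts passed, 1 member with an unadjusted p under 0.05), with gene SE of 0.20 (Dnmt1) to 0.50 (Dnmt3l), so a difference within a few of these SE was not detectable with 2 ESC lines. Between iPS and ESC also 0 of 9 passed (0.322% of symbols), and Tdg alone had an unadjusted p under 0.05, with 4.65 and 4.58 FPKM in iPS cells (difference -0.99 ± 0.40, unadjusted p = 0.0287, limma, adjusted p = 0.505).

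The iPS lines differed from fibroblasts, their cell of origin, in most of these genes. Of the 9 genes 8 passed against the single MEF sample, 7 higher and 1 lower in iPS cells, where 26.3% of symbols passed, 14.5% higher and 11.8% lower, and the MEF sample was taken to vary like the other groups. Dnmt3b was at 0.451 FPKM in MEF and 69.1 and 82.3 FPKM in iPS cells (5.72 ± 0.66, limma, adjusted p = 8.29e-05). Dnmt3l was at 0.371 FPKM in MEF and 208 and 162 FPKM in iPS cells (7.07 ± 0.70, limma, adjusted p = 2.83e-05). Tet3, at 3.16 FPKM in MEF and 0.810 and 1.52 FPKM in iPS cells, fell by 0.96 ± 0.21 (limma, adjusted p = 0.00602). Unlike in MASC, Dnmt1 was higher than in the starting cells, with 18.7 FPKM in MEF against 68.0 and 58.3 FPKM (difference 1.70 ± 0.27). The difference between these changes was not tested. Proliferation markers summed to 154 FPKM in MEF and to 1036 and 915 FPKM in iPS cells, with a median log2 difference of 2.87 over the 6 markers. Their part in the Dnmt1 difference was not tested. Tdg, at 4.23 FPKM in MEF, did not pass.

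HSC cultures, like SSC, had low Dnmt3l and Tet1 and more Tet3 than the pluripotent lines, and they used the other forms of Dnmt3a. Against SSC 4 of 9 genes passed, 1 higher and 3 lower, where 38.8% of symbols passed, 14.3% higher and 24.5% lower. Dnmt3a was at 9.37 and 9.56 FPKM in HSC, below every SSC line (-0.89 ± 0.21, limma, adjusted p = 0.00539). Dnmt3b, at 2.26 and 6.28 FPKM (-1.38 ± 0.47, adjusted p = 0.0341), and Dnmt1, at 71.0 and 67.7 FPKM (-0.60 ± 0.19, adjusted p = 0.0265, both limma), were also lower. Tet2, whose loss is a known event in blood disorders, was higher, at 3.51 and 5.91 FPKM (1.79 ± 0.38, limma, adjusted p = 0.00235). Dnmt1 missed the threshold without SSC line 1, 2 or 3 or either HSC culture (adjusted p of 0.0535 to 0.125), and Dnmt3b without SSC line 1 or 4 or HSC culture 1 (0.0743 to 0.334). Without SSC line 1, 2 genes passed, Dnmt3a and Tet2, where 3225 of 23891 symbols were higher and 5772 lower. Both HSC cultures were C57Bl/6J, a strain shared with SSC line 3 alone, and with strain as a block Dnmt3a (-0.76, adjusted p = 0.0980) and Dnmt3b (-0.87, adjusted p = 0.372) did not pass (limma), so that 2 genes, Dnmt1 and Tet2, passed. Dnmt3b also did not pass after quantile normalization (-0.98, limma, adjusted p = 0.102). Culture 1 had fewer transcripts at 1 FPKM or more than any other sample, 13532 against 14639 to 16272.

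Against the mean of the MASC, ESC and iPS groups, 7 of 9 genes passed, 1 higher and 6 lower, where 38.3% of symbols passed, 17.6% higher and 20.8% lower. Tet3, at 6.90 and 9.53 FPKM in HSC, was higher by 1.88 ± 0.14 (limma, adjusted p = 6.74e-07). Dnmt3a, Dnmt3b, Dnmt3l, Uhrf1, Tet1 and Tet2 were lower, from -6.86 ± 0.46 for Dnmt3l to -1.07 ± 0.35 for Tet2 (limma, adjusted p = 2.78e-07 and 0.0283). Tet2 missed the threshold without HSC culture 1, ESC line 2 or iPS line 2 (adjusted p of 0.0507 to 0.258), and Uhrf1 without either HSC culture or ESC line 1 (0.0529 to 0.240). No pluripotent line was C57Bl/6J, and with strain as a block Dnmt3a (-1.02, adjusted p = 0.0747) and Uhrf1 (-1.58, adjusted p = 0.109) did not pass (limma). Uhrf1 also missed the threshold after quantile normalization (adjusted p = 0.0541, limma). Dnmt3a in HSC came mainly from the CpG-rich upstream start shown above, with an internal-start share of 12.6% and 29.6% against 79.4% to 91.6% in the pluripotent lines. NM_007872 held 72.4 ± 6.74 points more of the gene than in the pluripotent lines (limma on shares, adjusted p = 1.33e-05). This is a value for 1 transcript. In iPS cells the other upstream transcript, NM_001271753, was at 2.65 and 3.66 FPKM and NM_007872 at no more than 0.00083 FPKM. NM_007872 was at 8.18 and 6.71 FPKM in HSC, above the SSC and pluripotent lines, and NM_153743 at 1.18 and 2.83 FPKM, below them. Of the member transcripts 13 of 30 passed by share in this comparison, 5 higher and 8 lower, against 14.2% of 10020, 7.48% higher and 6.76% lower. They included Dnmt3l NM_001284200, although Dnmt3l was at 1.30 and 0.461 FPKM in HSC, too low for its shares to be compared. They also included Dnmt3b transcripts, with the gene at 2.26 and 6.28 FPKM. Shares within a gene depend on each other, so calls within a gene are not separate. Dnmt3b with the 60-base exon was 8.90% and 36.8% of a gene total of a few FPKM in HSC, on either side of the SSC range and below the pluripotent lines. With NM_001122997 left out it was 0.0207% or less. The Dnmt1 transcript from the farthest upstream start, NM_001199432, held 32.4% and 47.5% of Dnmt1 in HSC, 18.5 ± 5.09 points more than in the pluripotent lines (limma on shares, adjusted p = 0.0300). The groups overlapped, since iPS line 1 held 37.0%, and the MEF sample held 28.5%. Another Dnmt1 transcript, NM_010066, was at 13.0 FPKM in HSC culture 1 and 0.0621 FPKM in culture 2.

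The differences between MASC and SSC could be compared in strains with lines of both kinds, Oct4-GFP (2 SSC and 2 MASC lines) and 129mix (1 and 2). No gene of the 9 passed for a strain difference (limma interaction, 0.406% of symbols passed), and 1 had an unadjusted p under 0.05. That gene was Dnmt1, which was lower in MASC by -0.89 in Oct4-GFP and by -0.21 in 129mix (unadjusted p = 0.00753, adjusted p = 0.223, limma). The sign was the same in both strains for all 9 genes, and the share of all symbols with this property is not given. For Dnmt3a the differences were 0.03 and 0.05, with an SE of 0.22 for the strain difference, so its sign tells nothing. The 129mix side rests on 1 SSC line. For Dnmt3l the strains differed by 0.12 ± 0.86 on values of 6.52 and 6.40, and for Tet3 by 0.31 ± 0.22 on -1.80 and -2.11.

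Other genes of DNA methylation, in 9 lists of 43 genes, split in both directions. Between MASC and SSC 14 were higher and 10 lower, where 13.6% of all symbols were higher and 22.8% lower, so the lower side was near the background, with a median difference of 0.06 against -0.0055 over all symbols and -0.17 over detected ones. After quantile normalization 21 of these 24 passed again and none changed sign, and the 3 that did not pass were Usp7, Lig3 and Ahcy. Among 5 partners of maintenance methylation 3 were higher and 1 lower, from Pcna, the replication clamp (1.28 ± 0.22, adjusted p = 0.00127), to Usp7, a deubiquitinase that binds Dnmt1 (0.58 ± 0.14, adjusted p = 0.0102, both limma). The lower gene was Uhrf2, the paralog of Uhrf1, with a median of 25.9 FPKM in SSC and 11.9 FPKM in MASC. Of 4 genes that protect or set up imprints 3 were higher, from Dppa3 (3.89 ± 0.67, adjusted p = 0.00129) to Trim28 (1.56 ± 0.15, adjusted p = 4.03e-05, both limma), and Kdm1b, a histone demethylase needed for maternal imprints, was lower (-2.24 ± 0.15, limma, adjusted p = 4.68e-06). Of 5 regulators of Dnmt3 and Tet enzymes only Prdm14, a repressor of Dnmt3b and Dnmt3l, passed (1.99 ± 0.22, limma, adjusted p = 8.76e-05), at a mean of 0.112 FPKM in SSC, 3.61 FPKM in MASC and 8.30 FPKM in ESC.

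For the short lists of readers and repair genes the counts stand beside the same background, which was itself more often lower than higher in MASC. Of 8 methyl-CpG readers 4 were lower, from Zbtb33, which encodes Kaiso (-1.75 ± 0.42, adjusted p = 0.00925), to Zbtb4 (-0.79 ± 0.22, adjusted p = 0.0166, both limma), and Mbd3, which binds methylated DNA poorly, was higher (0.95 ± 0.19, limma, adjusted p = 0.00314). Of 8 base excision repair genes, the pathway in which Tdg acts, 4 were lower and 0 higher (1 more, Apex1, had an unadjusted p under 0.05, limma). They ran from Neil2, a glycosylase at a mean of 20.2 FPKM in SSC and 2.75 FPKM in MASC (-2.52 ± 0.18, adjusted p = 6.25e-06), to Lig3, a ligase (-0.52 ± 0.16, adjusted p = 0.0295, both limma). The 2 genes called among 5 deaminase and Gadd45 genes were Gadd45a (2.14 ± 0.24, adjusted p = 9.92e-05) and Apobec1 (1.31 ± 0.18, adjusted p = 0.000319, both limma), both higher. Among genes of methyl donor supply Ahcy, which clears the product of methyl transfer, was higher (0.60 ± 0.17, limma, adjusted p = 0.0221), a call lost after quantile normalization (0.28, adjusted p = 0.338). Of 3 isocitrate dehydrogenase genes, whose product is the Tet cosubstrate, Idh2 was higher by 3.40 ± 0.27 (adjusted p = 1.12e-05) and Idh3a by 1.69 ± 0.20 (adjusted p = 0.000121, both limma), while Idh1 gave -0.04 ± 0.34. Trdmt1, an RNA methyltransferase of the Dnmt fold, did not pass (0.18 ± 0.18, limma, adjusted p = 0.503).

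Patterns nearest to each gene were sought over all 17 samples among 15387 detected symbols by Pearson's r of log2(FPKM + 1), as a description, since samples of a group share their cell type. Dnmt3l ran closest to L1td1 (r = 0.995) and Fgf4 (0.990), and Tet1 to Urah (0.995), Gtsf1l (0.993) and Chrna9 (0.992). Dnmt3b was nearest to Aurka, Cbx7 and Fam60a (each 0.971), Tet2 to Chd9 (0.965), Rdx (0.961) and Ctnna1 (0.957), and Dnmt3a to Fkbp4 (0.956), Kcnk5 (0.945) and Psmg1 (0.941). The replication genes Clspn (0.967) and Cdc45 (0.934), with 0610010K14Rik (0.938), were nearest to Dnmt1, and Nup85 (0.964), Nsl1 (0.956) and Cdc6 (0.950) to Uhrf1. Tet3 ran closest to March8 (0.980), Daglb (0.969) and Map4k2 (0.967). Tdg had the weakest neighbours, Ecsit (0.890) and Clpp (0.870).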

How the data were processed

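RNA (Qiagen RNeasy, TruSeq libraries) was sequenced from 17 cultures. The authors aligned reads with TopHat2 version 2.0.11 to mm9 and estimated deposited FPKM and coverage values per RefSeq transcript with Cufflinks, with upper-quartile and GC correction and without duplicate or multi-mapping reads. The files give no counts, so depth is unknown, and coverage served only to compare samples (1.26 to 3.23 per FPKM). Each table had 33262 entries, of which 601 further loci were left out. Gene totals are sums over transcripts. limma 3.58.1 (R 4.3.3) was fitted to log2(FPKM + 1) of all symbols or transcripts, and to isoform shares (percent of the gene total) of genes with a mean of at least 1 FPKM, with 12 lines for SSC, MASC and ESC comparisons and 17 samples for the others, and Benjamini-Hochberg adjustment at 0.05. Fold differences on this scale understate low genes. Grouped shares had exact permutation tests (numpy 2.4.6, pandas 2.3.3), adjusted over 12; all but the Tet1 share of the Tet genes and the Dnmt3b share of Dnmt3a and Dnmt3b were formed after the files were seen. Named genes were all members with their transcripts, the called genes of largest and smallest difference in each list, and the 3 nearest patterns per member; some genes that this rule names are not reported here. Uhrf2, Kdm1b, Mbd3, Apex1, Idh1 and Trdmt1 were added after their values were seen. The fits were tested on simulated data. The members and lists were chosen with earlier results of these data known. The data are bulk RNA, with no strand-specific counting stated.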

Additional observations from a re-analysis of the deposited data

Results flagged for a closer look

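In groups of 4 or 6 lines, 8 of 42 tests found a line standing apart from the others of its group (Dixon's criterion), where chance gives about 1 in 20. In MASC line 1 stood apart with the lowest Dnmt3l, 82.1 FPKM, and the lowest Dnmt3a internal-start share, 79.4%. In SSC line 3 had the highest Tet2, 1.33 FPKM, the highest Tet2 share of the Tet genes, 12.6%, and the lowest share of Dnmt3b with the 60-base exon, 17.9%. SSC line 2 had the lowest share of Dnmt3b with the 115-base exon, 16.2%, and, with NM_001122997 left out, the highest share with the 60-base exon, 0.00441%. The last share comes from transcripts at no more than 0.000108 FPKM, with lower Cufflinks bounds of 0, so this flag does not describe a level. SSC line 1, which also had the most Pou5f1 of the SSC lines, had the highest Tet1 share of the Tet genes, 1.42%. SSC line 3 and MASC line 1 had the highest fibroblast marker sums of their groups, 792 and 899 FPKM. SSC line 3 also had mast cell markers at 26.6 FPKM, and the part of these sums in the values of both lines was not tested. The tests share lines and genes, so these values are not independent of each other.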

How the results depend on the processing

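Called gene totals gave 472 values under the alternatives, of which 425 stayed past the threshold, 47 did not and 0 turned sign. With a log2 difference of at least 2 and unadjusted p under 0.05, member counts stand beside counts over all 23891 symbols. For MASC against SSC 4 genes passed, where 483 symbols were higher and 626 lower. For iPS against MEF 5 passed (1263 higher, 1318 lower), and for HSC against SSC 0 (1134 higher, 1478 lower). For HSC against the pluripotent lines 3 passed, where 1245 symbols were higher and 1075 lower. Of the transcripts 9 passed for MASC against SSC, where 590 of 32661 were higher and 721 lower. HSC against SSC gave 2 genes, Dnmt1 and Tet2, with a strain block, where 2423 of 23891 symbols were higher and 4780 lower. Isoform shares as log2 ratios gave 20 calls for MASC against SSC, where 794 of 10009 transcripts were higher and 768 lower. They gave 15 for ESC against SSC, where 405 were higher and 377 lower. The alternative without the lines of high fibroblast markers was chosen after seeing the data.

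Same-numbered SSC and MASC lines did not deviate together (r of -0.21 to 0.16 over 4 pairs, and 1 of 4 SSC lines correlated best with its own number). SSC line 3 and MASC line 3 carry different strain labels, C57Bl/6J and 129mix. Whether other same-numbered lines share an origin cannot be told from these correlations. With a replicate block 13 transcripts passed for MASC against SSC, where 2271 of 32661 were higher and 3674 lower. By share 7 passed for MASC, where 212 of 10009 were higher and 223 lower, and 2 for ESC, where 77 were higher and 64 lower. The differences in the Tet1 and Dnmt3b shares were 66.0 and 44.2 points (exact permutation p = 0.125, the smallest 4 pairs allow). The block gave an adjusted p of 0.0540 for Dnmt1 and 0.0546 for Tdg in MASC against SSC (limma). No such fit was made for iPS against MEF.

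Leaving out each line gave 7 to 8 genes for MASC and 5 to 7 for ESC against SSC, 0 for MASC or iPS against ESC, 8 for iPS against MEF, 2 to 4 for HSC against SSC and 6 to 7 against the pluripotent lines. Transcripts gave 17 to 20, 11 to 15 and 0 calls (MASC and ESC against SSC, MASC against ESC), and shares 9 to 12, 6 to 11 and 10 to 15 (MASC and ESC against SSC, HSC against pluripotent lines). The Tet1 share differed by 64.4 to 67.0 points and the Dnmt3b share by 42.9 to 48.8. Counts over all symbols and transcripts without each line are not given here, so these ranges show only how stable the member counts were.

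Log2 differences that were not called turned sign as follows, and the cause was not tested. With the replicate block in MASC against ESC Dnmt3b gave -0.230, Tdg 0.0214 and Uhrf1 0.138. With the strain block Dnmt3b gave -0.0364 there, Dnmt1 0.0127 and Uhrf1 0.0163 in iPS against ESC, Tdg -0.711 in HSC against SSC and Dnmt1 -0.224 in HSC against the pluripotent lines. In lines of low fibroblast markers Dnmt1 gave 0.146, Tdg 0.0618 and Uhrf1 0.263 in MASC against ESC, and quantile normalization gave Tet3 0.0295 in HSC against SSC. Leaving out each line gave ranges across 0, in MASC against SSC Dnmt3a -6.16e-05 to 0.173, in MASC against ESC Dnmt1 -0.431 to 0.141, Dnmt3b -0.259 to 0.605, Dnmt3l -0.548 to 0.13, Tdg -0.211 to 0.0841, Tet2 -0.847 to 0.0518 and Uhrf1 -0.407 to 0.226, in iPS against ESC Dnmt1 -0.456 to 0.116, Dnmt3a -0.361 to 0.019, Dnmt3b -0.86 to 0.0037, Tet1 -0.557 to 0.178, Tet2 -0.876 to 0.023, Tet3 -0.335 to 0.145 and Uhrf1 -0.611 to 0.0219, in HSC against SSC Dnmt3l -0.32 to 0.333 and Tdg -0.434 to 0.604, and in HSC against pluripotent lines Dnmt1 -0.0232 to 0.167.

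FPKM without counts gives no depth limit, and values far under 1 FPKM, such as Tet1 in SSC, are the least certain. The 2 ESC, iPS and HSC cultures and the single MEF sample limit those comparisons most.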
